A study of Drosophila melanogaster with 4 samples.

Results

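The 38C cluster is a stretch of transposon remains on the left arm of chromosome 2 of Drosophila melanogaster that gives rise to Piwi-interacting RNAs (piRNAs) in the ovary. Its members here were all annotated repeat copies that lay wholly within a window on 2L around the cluster. The rule used position alone and no filter on counts, but it was chosen with earlier results of these data known. There were 365 such copies out of 137555 in the table. Of these, 153 lay in the cluster (2L:20100710-20229771, dm6), 91 in the flank before it (2L:19901338-20099557) and 121 in the flank after it (2L:20231117-20396081).

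Small RNAs were sequenced from ovaries of flies with a germline knockdown of Ars2 (Ars2KD, hairpin Ars2_sh1, Vienna stock 106344, 2 libraries) and from ovaries in which white, a gene for eye pigment, was knocked down in germ cells (wKD, hairpin white_sh, Vienna stock 30033, 2 libraries). Ars2 binds RNA and works together with the cap-binding complex of the nucleus, and the series title links it to the silencing of telomeric repeats and transposons. Both groups therefore carried a hairpin directed at germ cells, while the somatic follicle cells of the ovary were not its target. The sources used here do not give the driver of the hairpins, the age of the flies or the number of flies behind a library.

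piRNAs are small RNAs slightly longer than microRNAs that guide Piwi proteins to transposon transcripts and, in the nucleus, to transposon DNA. Most are cut from long precursors transcribed from a few clusters packed with old, broken and nested transposon copies. 38C, like 42AB and 80F, is a germline cluster transcribed from both strands, marked by the chromatin protein Rhino, whereas flamenco is transcribed from one strand and works in the follicle cells.

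The 4 libraries differed in depth. Reads of 24 to 29 nt over repeats numbered 46218 in Ars2KD 1 and 169124 in Ars2KD 2, against 64395 in wKD 1 and 323180 in wKD 2. The same libraries held 653566 and 3681482 mature microRNA counts for Ars2KD, against 1056475 and 4554667 for wKD, so the libraries numbered 1 were the shallower of each group. Normalised read counts are given as CPM, the count divided by the library's repeat total after TMM scaling. A total of 3 counts, used as the limit that a count of 0 allows, equalled 58.4 CPM in Ars2KD 1, 18.8 in Ars2KD 2, 43.2 in wKD 1 and 10.5 in wKD 2. The labels do not say that libraries of a group came from separate flies, so p-values measure the spread between these libraries, which may be technical. The tables hold small RNAs, and the level of Ars2 itself could not be read from them.

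Reads over repeats of the window lay almost wholly in the cluster. Of the 153 copies of the cluster, 100 had a count in any library, which is 65.4%, against 11.0% of all copies in the table. The cluster held 24364 counts, or 295.8 counts per kb of annotated repeat, and both flanks together held 16 counts over 32.8 kb, or 0.488 counts per kb. In single libraries the cluster had 1895 and 7701 counts in Ars2KD and 2520 and 12248 in wKD. The flanks had 4 and 3 counts in Ars2KD and 2 and 7 in wKD. The step between cluster and flanks was thus present in every library. The make-up of the parts differed, as simple and low-complexity repeats were 183 of the 212 flank copies, against 22 of the 153 cluster copies. Inside the cluster, simple repeats held 9 counts, or 10.2 per kb. Neither the step nor the contrast with all copies was adjusted for repeat type, and the part of repeat type in them was not tested.

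The first copy with at least 10 counts was a fragment of the G element, 785 bp upstream of the gene CG13970, which lies on the minus strand. The last such copy ended at 2L:20223861, 24.2 kb before the long non-coding RNA gene lncRNA:CR40341. The 66 copies with at least 10 counts all lay within these 118.9 kb. Inside them, 29.4 kb around the gene CG10651 (2L:20119292-20148650) held 14 copies with only 10 counts in all. CG10651 is the one annotated gene between the first and the last copy with at least 10 counts, and 152 of the 153 cluster copies were intergenic.

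**Figure D1:**
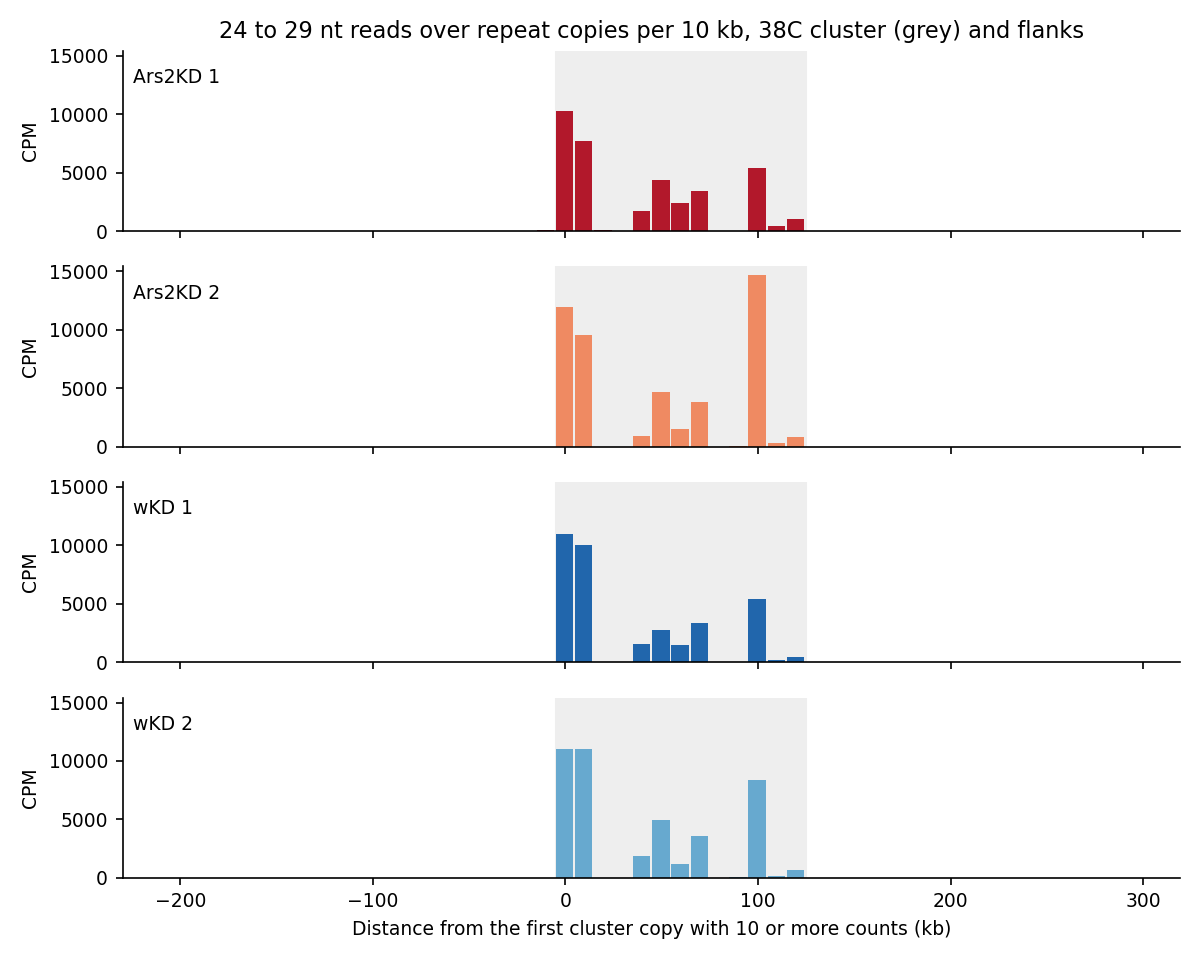
Normalised read count (CPM) of 24 to 29 nt reads over repeat copies summed in 10 kb bins, 1 panel per library, by distance from the first cluster copy with at least 10 counts, with the cluster shaded grey. In all 4 libraries the reads lay in the shaded region, in a tall block at its start and a second block past a gap around CG10651. The second block had its tallest bin about 100 kb along, with low bins after it. Just before that bin, those that start at 2L:20180000 and 2L:20190000 held only 13 and 22 counts.

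Along the cluster, 3 of the 10 kb bins held most of the reads. The bin that starts at 2L:20100000 held 26.0% of all counts of the window, the next bin 23.6%, and the bin that starts at 2L:20200000 held 22.1%. The first of these had 10284 and 11910 CPM in Ars2KD and 10965 and 11031 CPM in wKD, a narrow range in all 4 libraries. The next had 7733 and 9528 CPM in Ars2KD, against 10000 and 11006 CPM in wKD, so both Ars2KD libraries lay below both wKD libraries (log2 ratio -0.28, SE 0.41). The bin that starts at 2L:20200000, rich in G2 and hobo fragments, had 5395 and 14694 CPM in Ars2KD and 5447 and 8354 CPM in wKD. There the libraries numbered 2 were high in both groups, and Ars2KD 2 was the highest. Of 9 bins with enough counts for the edgeR test, 0 passed the adjusted threshold of 0.05 in either direction, where 0.0622% of all rows in that fit passed. DESeq2 and limma-voom also called 0 bins. An unadjusted p under 0.05 was found for 0 of the 9 bins with edgeR and DESeq2 and for 1 with limma-voom. Over all rows in those fits the shares were 4.23% with edgeR, 3.36% with DESeq2 and 10.4% with limma-voom.

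The comparison of Ars2KD with wKD asked whether reads of the locus, relative to those over all repeats, differed with the germline knockdown of Ars2. The share of a library's repeat counts that fell in the cluster was 4.10% in Ars2KD 1 (95% exact binomial interval 3.92 to 4.29%) and 4.55% in Ars2KD 2 (4.45 to 4.65%), against 3.91% in wKD 1 (3.76 to 4.07%) and 3.79% in wKD 2 (3.72 to 3.86%). Both Ars2KD shares lay above both wKD shares, with means of 4.33 ± 0.321% in Ars2KD and 3.85 ± 0.0873% in wKD (SD, n = 2 each). These intervals cover counting error within a library only. The reads carry no molecular identifiers, so duplicate reads could not be told apart and the intervals may be too narrow even for that.

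After TMM scaling the groups overlapped. The cluster had 36911 and 48275 CPM in Ars2KD, with a mean of 42593 ± 8036, against 36311 and 42795 CPM in wKD, with a mean of 39553 ± 4585 (SD, n = 2 each). This gave a log2 ratio of 0.11 (SE 0.41, 95% interval -0.86 to 1.09, edgeR adjusted p = 0.998). The interval is wide and spans a lower as well as a higher relative count. As CPM is relative to the repeat reads of the same library, a change common to all repeats would not show in it. In bulk ovaries, fewer germ cells and fewer piRNAs per germ cell cannot be told apart. Between the libraries numbered 1 the log2 ratio was 0.02 and between those numbered 2 it was 0.17. The sign of the ratio turned with the scaling and with single libraries, to -0.016 when the repeat and microRNA totals together set the library size, -0.019 without copies that overlap another copy, -0.077 with no filter on low counts, -0.15 without Ars2KD 2 and -0.14 without wKD 1. The cluster sum was 1 of 1600 rows in that fit, of which 0.0625% passed.

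The part of the cluster before CG10651 and the part after it, split there after the profile had been seen, differed in density. The first block held 12113 counts in 31 copies, or 1032 counts per kb of repeat, and the second held 12251 counts in 122 copies, or 173 counts per kb. The 70.6 kb of repeat in the second block included 3 long internal parts of the element gtwin, with a summed length of 19263 bp and 14 counts. The part of such long copies in the difference in density was not tested. How reads with several positions were assigned to them is not known. The first block had 18095 and 21439 CPM in Ars2KD and 20980 and 22040 CPM in wKD, which gave a log2 ratio of -0.12 (SE 0.41). The second block had 18816 and 26836 CPM in Ars2KD and 15331 and 20755 CPM in wKD, which gave a log2 ratio of 0.35 (SE 0.44). Both edgeR adjusted p were 0.998, and 0.125% of the rows in that fit passed. The second block gave 1.04 and 1.25 reads for each read of the first in Ars2KD, against 0.731 and 0.942 in wKD. All values of this ratio were higher in Ars2KD, a difference of 0.46 on the log2 scale, and the exact two-sided permutation p of 0.33 is the smallest that 2 libraries against 2 can give.

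Most reads of the cluster came from a few fragments. The 12 copies with the highest mean CPM held 17586 counts, or 72.2% of the cluster. The 103 copies of 100 to 1500 bp held 23644 counts, or 480 counts per kb, whereas the 7 copies over 1500 bp covered 31.2 kb and held 389 counts, or 12.5 per kb. Of those 389, 371 lay on 1 copy, a fragment of the X element (2L:20107036-20109033). The other 6 long copies had between 0 and 6 counts.

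G6_DM, a fragment of the non-LTR retrotransposon (LINE) G6 at 2L:20105437-20106582, had the most counts in the cluster, 4270 or 3726 per kb. It had 7129 and 7021 CPM in Ars2KD, against 8141 and 7753 CPM in wKD, so both Ars2KD libraries lay below both wKD libraries. The log2 ratio was -0.17 (SE 0.42), under the error of the fit. Its neighbour G_DM at 2L:20104936-20105422, a piece of the related G element and the first copy of the locus with at least 10 counts, had 1656 and 3448 CPM in Ars2KD and 1484 and 2096 CPM in wKD. The groups overlapped, with Ars2KD 2 the highest library (log2 ratio 0.51, SE 0.56).

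BS at 2L:20109916-20110920, a fragment of a jockey-type LINE, had 2922 and 4206 CPM in Ars2KD and 3156 and 4469 CPM in wKD. Here the libraries numbered 2 were the higher in both groups, and the log2 ratio was -0.10 (SE 0.48). Transib5 at 2L:20113749-20114943, the remnant of a cut-and-paste DNA transposon, had 1714 and 1504 CPM in Ars2KD, against 2478 and 2952 CPM in wKD. The groups did not overlap, and the log2 ratio was -0.76 (SE 0.48, edgeR adjusted p = 0.998).

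In the second block, the copy with the most counts was G2_DM at 2L:20207126-20207660, a piece of the LINE G2 with 4355 counts per kb. It had 1286 and 7679 CPM in Ars2KD and 1095 and 3365 CPM in wKD. Both libraries numbered 2 were far above those numbered 1, which left a log2 ratio of 1.01 with an SE of 0.89, and without Ars2KD 2 the value was -0.86. The adjoining G2_DM copy at 2L:20206502-20207126, part of the same annotated insertion, had 1636 and 2595 CPM in Ars2KD and 2104 and 1778 CPM in wKD (log2 ratio 0.13, SE 0.51). The groups overlapped in that copy too. G2_DM at 2L:20151484-20152810, had 603.8 and 1799 CPM in Ars2KD and 764 and 1730 CPM in wKD (log2 ratio -0.05, SE 0.71).

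G_DM at 2L:20150149-20151411, the second piece of the G element, had 3253 and 2583 CPM in Ars2KD and 1585 and 2907 CPM in wKD. The low library was wKD 1, and the log2 ratio was 0.37 (SE 0.52). HOBO at 2L:20203678-20204705, a fragment of the DNA transposon hobo, had 838 and 1749 CPM in Ars2KD and 1066 and 1181 CPM in wKD (log2 ratio 0.21, SE 0.58). Invader4_LTR at 2L:20172222-20172565, the terminal repeat of an LTR retrotransposon of the gypsy group, had 292 and 1555 CPM in Ars2KD and 360.2 and 1583 CPM in wKD. For that copy the number of the library, not the group, separated high from low values (log2 ratio -0.07, SE 0.95).

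The remaining 2 of the 12 were DNA transposon copies. S_DM at 2L:20173313-20174151, a fragment of the Tc1-like element S, had 1032 and 890.2 CPM in Ars2KD and 778 and 954 CPM in wKD (log2 ratio 0.15, SE 0.54). PROTOP at 2L:20149214-20150118, the P-like DNA transposon also called hoppel, had 974 and 784 CPM in Ars2KD and 764 and 765 CPM in wKD (log2 ratio 0.20, SE 0.54). Both Ars2KD values of the PROTOP copy lay above both wKD values, by less than the spread within Ars2KD.

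**Figure D2:**
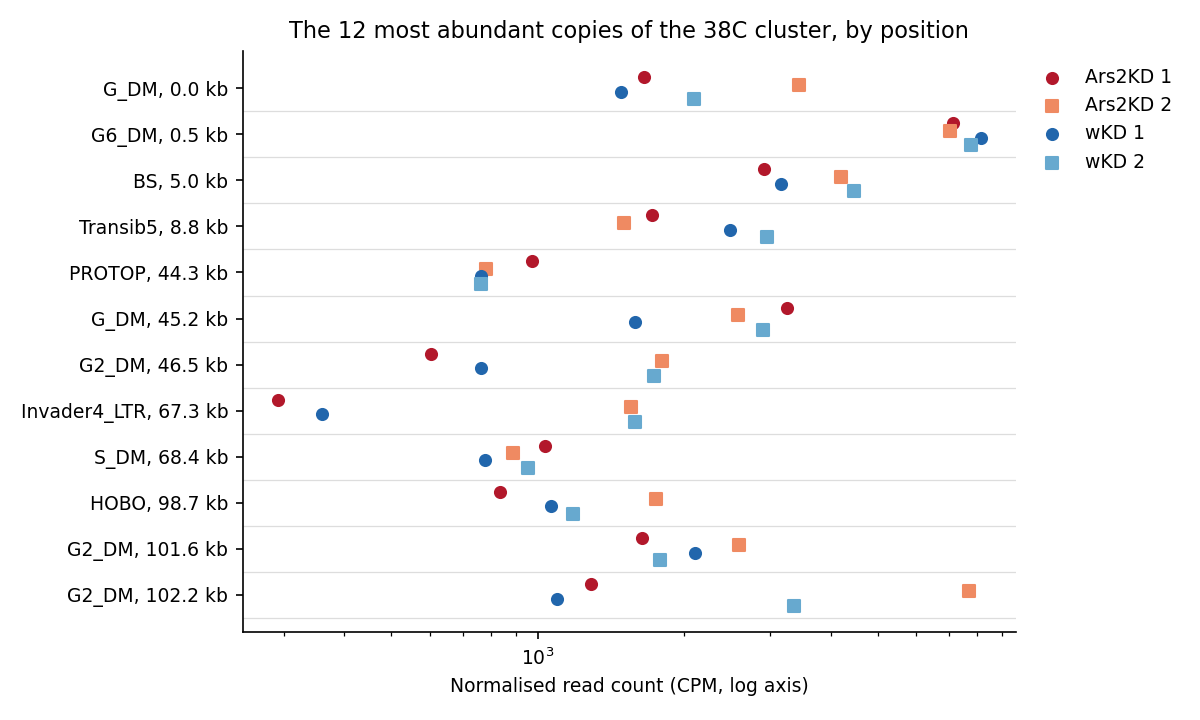
Normalised read count (CPM, log axis) of the 12 cluster copies with the highest mean, 1 point per library, in order of their distance from the first copy with at least 10 counts. G6_DM and Transib5 lay lower in both Ars2KD libraries and PROTOP higher, while the G2_DM copy at 102.2 kb and Invader4_LTR spread by library number within each group.

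Across the cluster, 48 copies had enough counts for the edgeR test, and 0 of the flank copies did. None of the 48 passed the adjusted threshold in either direction, where 0.0607% of the 1647 copies tested genome-wide passed, and DESeq2 and limma-voom also called 0. With edgeR 0 of the 48 had an unadjusted p under 0.05, where 4.13% of all tested copies did. With DESeq2 it was also 0 of 48, where 3.4% of all tested copies did, and with limma-voom 6 of 48, where 10.5% did. The lowest unadjusted p from edgeR among the 48 was 0.105. The log2 ratio was above 0 in 29 of the 48, with a median of 0.17 and a range of -3.05 to 1.38, where 49.2% of all tested copies were above 0, with a median of -0.01. The count above 0 was 25 of 48 with library sizes from both tables together and 33 of 48 with the repeat total as library size, scalings that moved the median of all copies to -0.12 and 0.057.

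Both Ars2KD libraries lay above both wKD libraries in 9 of the 48 copies, which is 18.8%, where the figure over all tested copies was 17%. Both Ars2KD libraries lay below in 7, which is 14.6%, where it was 16.9% over all tested copies. Both shares were near those of the whole table. In the first block 7 of 17 tested copies had a log2 ratio above 0 (median -0.10), and in the second block 22 of 31 did (median 0.33). Over all tested copies the share was 49.2%. Copies of a block are not independent, and the summed log2 ratio of the second block was 0.0040 without wKD 1. By class, 14 of 23 LINE copies, 13 of 20 DNA transposon copies and 2 of 5 LTR copies were above 0.

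**Figure D3:**
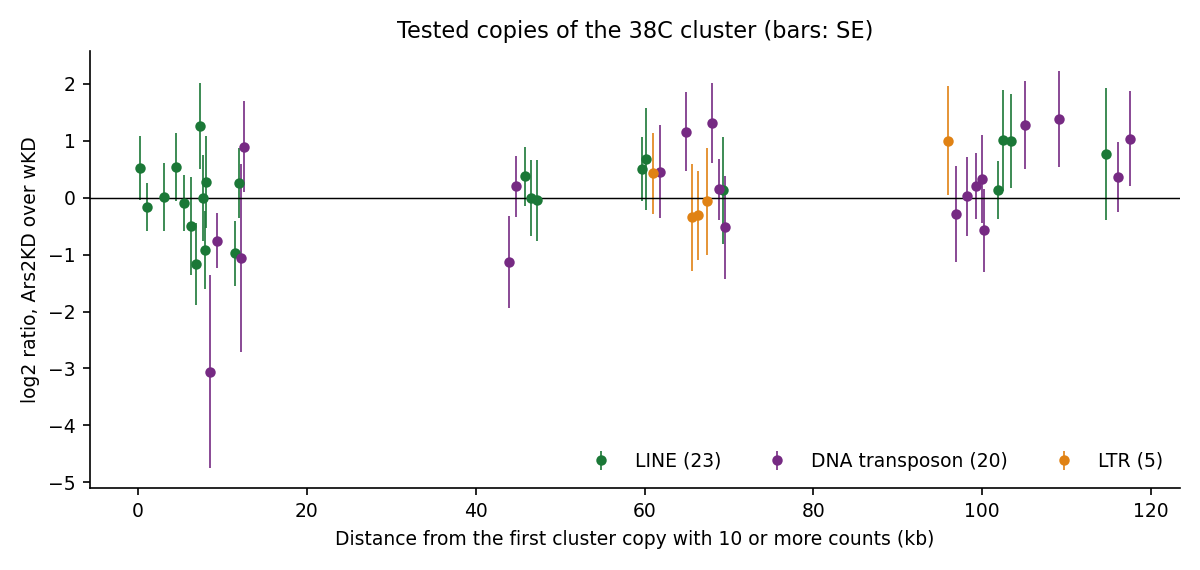
The log2 ratio of Ars2KD over wKD for the 48 tested copies, by distance from the first copy with at least 10 counts, with colours for LINE, DNA transposon and LTR copies and bars for the SE of the fit. The values ran from -3.05 to 1.38 with a median of 0.17. Of the copies past CG10651, a split made after the profile had been seen, 22 of 31 lay above 0. Over all tested copies 49.2% did.

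The 5 copies with the lowest unadjusted p on the higher side were 4 DNA transposon fragments of the second block and 1 LINE fragment of the first. S_DM at 2L:20172568-20173301 had 331 and 414 CPM in Ars2KD, against 202 and 108 CPM in wKD (log2 ratio 1.30, SE 0.70). M4DM at 2L:20169482-20170273, annotated as the DNA transposon hopper2, had 565 and 295 CPM in Ars2KD, against 231 and 154 CPM in wKD (log2 ratio 1.16, SE 0.70). A second M4DM copy, at 2L:20213659-20214371, had 136 and 169 CPM in Ars2KD, against 72.0 and 48.9 CPM in wKD (log2 ratio 1.38, SE 0.85). In all of these the groups did not overlap. PROTOP at 2L:20209443-20210487 had 136 and 288 CPM in Ars2KD, against 115 and 69.9 CPM in wKD (log2 ratio 1.27, SE 0.78). G5_DM at 2L:20112135-20112416, a short piece of the LINE G5, had 370.1 and 1360.3 CPM in Ars2KD and 432 and 304 CPM in wKD, so its ratio of 1.26 (SE 0.75) came from Ars2KD 2 alone and was -0.01 without that library.

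On the lower side, 4 of the 5 copies lay in the first block. TC1-2_DM at 2L:20113107-20113752, a Tc1-type DNA transposon fragment, had 2 and 0 counts in Ars2KD, against 7 and 37 counts in wKD, and its fitted log2 ratio of -3.05 had an SE of 1.69. BS2 at 2L:20116173-20116644, a fragment of the X element, had 351 and 364 CPM in Ars2KD, against 648 and 761.7 CPM in wKD (log2 ratio -0.98, SE 0.58). Both Ars2KD libraries were close together and below both wKD libraries. G2_DM at 2L:20111425-20112127 had 253 and 138 CPM in Ars2KD, against 562 and 307 CPM in wKD (log2 ratio -1.17, SE 0.72). Transib5, described above, was the fourth. The fifth was PROTOP at 2L:20148651-20149215, at the near edge of the second block, with 740.2 and 150 CPM in Ars2KD, against 836 and 1059 CPM in wKD (log2 ratio -1.13, SE 0.81), where Ars2KD 2 was far below the other 3 libraries. Its log2 ratio was -0.40 without Ars2KD 2 and -2.75 without Ars2KD 1. The edgeR adjusted p of each of these 10 copies was 0.998 with group as the only term. With a replicate block, the PROTOP copy at 2L:20148651-20149215 passed as lower, with values given in the closing section.

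LINEs gave most of the reads. They made up 23.1% of the summed length of the cluster copies and 72.1% of its counts, at 920 counts per kb. DNA transposons made up 35.04% of the length and 21.4% of the counts, at 179.9 per kb. LTR elements made up 39.7% of the length and 6.001% of the counts, at 44.4 per kb. The LINE share of cluster counts was 68.1 and 76.4% in Ars2KD, against 68.7 and 70.8% in wKD, so the groups overlapped. The summed log2 ratios were 0.17 for LINEs (SE 0.42), -0.04 for DNA transposons (SE 0.42) and 0.01 for LTR elements (SE 0.50), with an edgeR adjusted p of 0.998 each, and 0.0624% of the rows in that fit passed.

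By family, G2, G6, BS and G together led the cluster. The 11 G2_DM copies had 5045 and 13954 CPM in Ars2KD and 5548 and 8319 CPM in wKD (log2 ratio 0.46, SE 0.58). The 4 BS copies had 3974 and 5347 CPM in Ars2KD and 4539 and 5629 CPM in wKD (log2 ratio -0.12, SE 0.44). The 2 G_DM copies had 4908 and 6030 CPM in Ars2KD and 3069 and 5003 CPM in wKD (log2 ratio 0.44, SE 0.47). Of 21 families tested inside the cluster, 0 passed in either direction with edgeR, where 0.0617% of the rows in that fit passed. DESeq2 and limma-voom also called 0, and 0 of the 21 had an unadjusted p under 0.05 with any of these tools. Over all rows in those fits 4.26% had one with edgeR, 3.4% with DESeq2 and 10.6% with limma-voom.

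Of the 21 families, 5 lay higher in both Ars2KD libraries, where 17% of all rows in that fit did, and 5 lay lower in both, where 16.8% did. The higher ones were S_DM, HELENA_RT, TRANSIB2, M4DM and PROTOP_B, and the lower ones G6_DM, Transib5, BS2, DNAREP1_DM and TC1-2_DM. The Transib5 copies had 1792 and 1793 CPM in Ars2KD, against 2695 and 3221 CPM in wKD (log2 ratio -0.72, SE 0.47). The BS2 copies had 2279 and 2219 CPM in Ars2KD, against 2334 and 2526 CPM in wKD (log2 ratio -0.11, SE 0.46). DNAREP1_DM, the short non-autonomous element INE-1, had 77.9 and 87.8 CPM in Ars2KD, against 202 and 196 CPM in wKD (log2 ratio -1.24, SE 0.72), from 88 counts in all. Higher in both Ars2KD libraries were the S_DM copies, with 1363 and 1304 CPM against 980 and 1062 CPM in wKD (log2 ratio 0.39, SE 0.50), and the M4DM copies, with 701 and 464 CPM against 346 and 217 CPM in wKD (log2 ratio 1.06, SE 0.63). The edgeR adjusted p of each was 0.998.

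The other families named by abundance or lowest p overlapped between groups or matched a copy described above. PROTOP had a summed log2 ratio of -0.08 (SE 0.52) over 14 copies, HOBO 0.09 (SE 0.49) over 11 copies, Invader4_I-int -0.32 (SE 0.74) over 3 copies and Invader3_I-int 1.34 (SE 0.87) over 4 copies. The last value was 0.20 without Ars2KD 2 and 2.50 without wKD 2. G6_DM, G5_DM and TC1-2_DM each had 1 copy in the cluster.

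**Figure D4:**
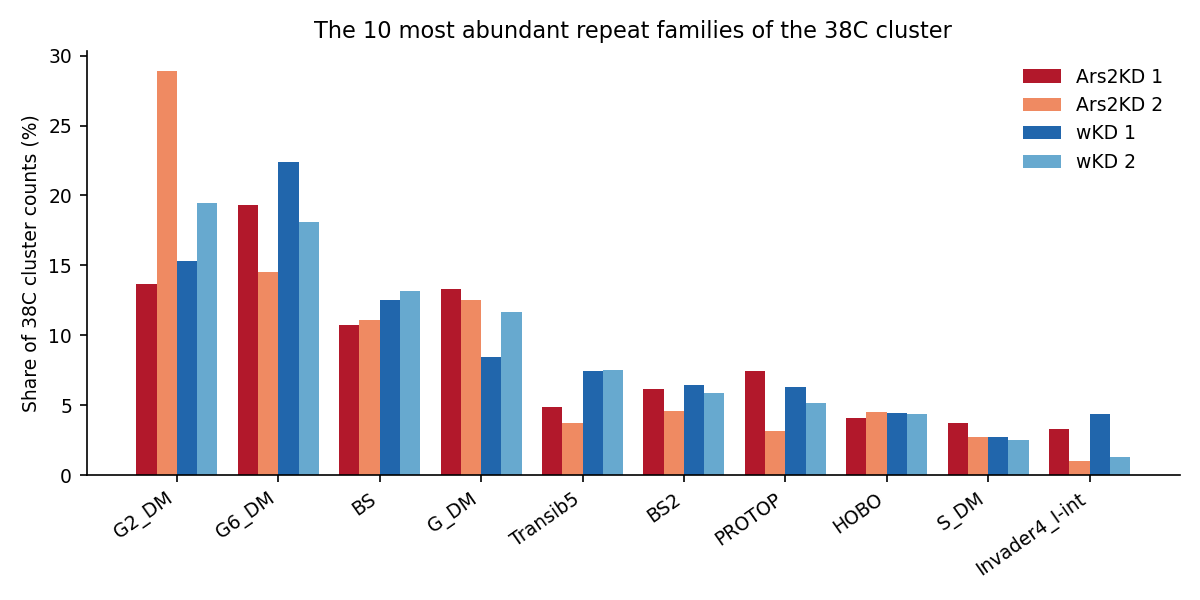
Share of the cluster's counts (%) held by each of its 10 most abundant repeat families, 1 bar per library. G2_DM held 28.9% in Ars2KD 2 and between 13.7 and 19.4% in the other 3 libraries, and Transib5 was lower in both Ars2KD libraries.

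For some families the cluster was the main source of reads in the whole table, as far as reads from like copies were counted at the right one. The cluster held 86.1% of all G2_DM counts, 87.8% of Transib5 counts and 78.3% of G6_DM counts, with 11 of 200, 4 of 79 and 1 of 70 annotated copies. For G2_DM the share was 82.2 and 89.9% in Ars2KD and 80.9 and 84.1% in wKD. For Transib5 it was 77.3 and 86.7% in Ars2KD, against 83.1 and 90.5% in wKD. In both families the groups overlapped. The cluster held 38.5% of G_DM counts, 26.3% of PROTOP counts, 11.4% of BS counts and 0.77% of DNAREP1_DM counts, the last from 6 of 5802 copies.

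Long, nearly whole LTR elements inside the cluster had few reads. The 3 internal parts of gtwin, a gypsy-group retrotransposon, each 6421 bp long, had 1 and 2 counts in Ars2KD and 2 and 9 in wKD, summed over all 3. The internal parts of gtwin in the whole table had 617 and 469 counts in Ars2KD and 865 and 1139 in wKD. The copia element at 2L:20159292-20163993, 4702 bp long, had 0 counts in every library, while copia copies elsewhere in the table had 176 and 496 counts in Ars2KD and 664 and 1613 in wKD. The sources used here do not say how reads with several positions were assigned, and the part of the counting in the low counts of copies with near-identical relatives was not tested.

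Of the 131 cluster copies other than simple repeats, 103 matched 60 annotated insertions by name and position. Insertions annotated on the minus strand held 77.6% of the cluster's counts and 56.9% of the length of its copies. Plus-strand insertions held 13.4% of the counts and 23.4% of the length. The 50 copies without a matched insertion, which have no strand here, held 8.98% of the counts and 19.7% of the length. The minus-strand insertions had 1394 and 6292 counts in Ars2KD and 1831 and 9394 in wKD, while plus-strand insertions had 326 and 924 in Ars2KD and 429 and 1587 in wKD. The minus-strand share was 73.6 and 81.7% in Ars2KD, against 72.7 and 76.7% in wKD, so the groups overlapped. The strand is that of the element and not of the reads, which the table does not give.

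The few reads of the flanks lay on scattered copies, and no flank copy had more than 3 counts over all libraries. An INE-1 fragment in an exon of Kua, at 2L:20099224-20099316 and the nearest counted copy before the cluster, had 3 and 0 counts in Ars2KD and 0 and 0 in wKD. An mdg3 LTR retrotransposon of 4629 bp, at 2L:20277926-20282554, had 1 and 2 counts in Ars2KD and 0 and 0 in wKD. A flea element in an intron of CG43861, at 2L:20006198-20010674, had 0 and 1 count in Ars2KD and 0 and 1 in wKD. A blood element at 2L:20303615-20310227 had 1 count, in wKD 2, and the other 4 flank copies with a count were simple repeats with 1 to 3 counts. At these counts a difference between groups was not detectable at this depth.

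In size of its share, 38C stood near 3 of the 4 other clusters compared and below the fourth, 42AB. Its 4.10 and 4.55% in Ars2KD and 3.91 and 3.79% in wKD compare with 20.6 and 27.5% in Ars2KD and 26.2 and 36.3% in wKD for 42AB, a large germline cluster. The germline cluster 80F held 5.26 and 4.16% in Ars2KD, against 5.59 and 4.53% in wKD. The uni-strand cluster 20A held 6.64 and 5.31% in Ars2KD, against 4.79 and 5.07% in wKD, so its Ars2KD shares also both lay above its wKD shares. The reads of 38C relative to 42AB were higher in both Ars2KD libraries, by 0.54 on the log2 scale (exact two-sided permutation p = 0.33, the smallest possible, adjusted over 4 clusters 0.889), and by 0.28 to 0.80 when single libraries were left out. Relative to 80F the difference was 0.27 (exact permutation p = 0.667, adjusted 0.889), and 0.025 without Ars2KD 2. Relative to 20A it was -0.10 (exact permutation p = 1, adjusted 1), and relative to the follicle cell cluster flamenco it was 0.17 (exact permutation p = 0.667, adjusted 0.889). Flamenco itself held 3.94 and 3.02% in Ars2KD and 4.44 and 2.71% in wKD, so reads of the somatic cluster were present in all 4 libraries and overlapped between groups.

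**Figure D5:**
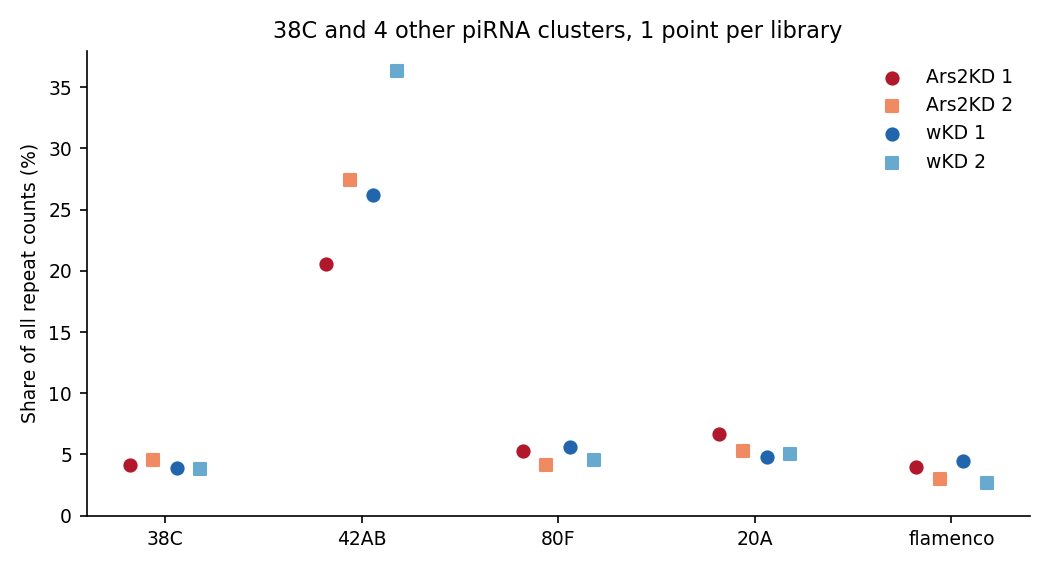
Share of all repeat counts (%) in 38C and 4 other piRNA clusters, 1 point per library. The 38C points lay between 3.79 and 4.55%, with both Ars2KD libraries above both wKD libraries, an order that 20A also had. The 42AB points spread from 20.6 to 36.3%.

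The log2 CPM of the 48 tested copies correlated with r = 0.90 between Ars2KD 1 and wKD 1 and 0.76 between Ars2KD 2 and wKD 2, and with 0.71 between the Ars2KD libraries and 0.85 between the wKD libraries. These correlations are across copies of 1 locus, which are not independent. Ars2KD 2 was the library most apart, with r = 0.60 to wKD 1. Over all 1647 tested copies, r was 0.66 between Ars2KD 1 and wKD 1 and 0.67 between Ars2KD 2 and wKD 2. It was 0.44 between the Ars2KD libraries and 0.61 between the wKD libraries, so same-numbered libraries were the more alike.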

How the data were processed

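Per the file headers, the authors deposited raw counts of reads of 24 to 29 nt per annotated repeat copy and library, and a second table of raw microRNA counts, used here only for totals. Per the labels' protocols, a gel was used to keep RNA of 19 to 29 nt for the libraries. Bowtie2, featureCounts, FastQC and Trimmomatic are named in the submitters' processing notes, with dm6 as the build. The sources used here give no versions, mapping settings, strand or rule for reads with several positions, so counts of single copies, and of the 63 cluster copies that overlap another, are uncertain to that extent. Whether the reads are piRNAs was not otherwise checked.

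Counts were fitted for the whole table by the quasi-likelihood test of edgeR 4.0.16 (R 4.3.3), with TMM scaling, filterByExpr by group, group as the only term, Benjamini-Hochberg adjustment over all rows and a threshold of 0.05. Sums over the cluster, its blocks, families, classes and 10 kb bins were fitted with all copies outside them. TMM gave scaling factors of 1.11 and 0.943 for Ars2KD, against 1.08 and 0.886 for wKD. Alternatives were DESeq2 1.42.0, limma-voom (limma 3.58.1), other scalings and filters, a replicate block, single libraries left out and other row sets. The edgeR script was also run on simulated counts that held no effect of library number, as a check of the code only. Cluster ratios were compared by exact permutation over libraries. Shares have exact Clopper-Pearson intervals, and 3 counts is the limit for a count of 0. The permutation tests and intervals came from scipy 1.17.1, tables from pandas 2.3.3 and numpy 2.4.6, and figures from matplotlib 3.10.9.

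Coordinates are 1-based dm6 positions from the table. Genes are those of Ensembl's annotation of that assembly, and insertions are those that it holds, matched by element name and an overlap of at least 0.5 of the shorter feature. Copies named were the 12 of highest mean CPM in the cluster, the 5 of highest mean in each flank and the 5 of lowest p in each direction, and families were the 10 of highest mean and the 3 of lowest p in each direction. Long copies, strand and flank examples beyond these were chosen after their values were seen. The members, lists and tests were chosen with earlier results of these data known, and the limits of 20A and 80F and the split at CG10651 were set after the table was seen.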

Additional observations from a re-analysis of the deposited data

How the results depend on the processing

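The counts of called copies, families and bins stayed at 0 in both directions under every alternative, with 1 exception: with a replicate block, 1 of the 48 cluster copies passed as lower, PROTOP at 2L:20148651-20149215 (log2 ratio -1.51, edgeR adjusted p = 0.0201), where 2.79% of all tested copies did. The labels do not say what the numbers mark, so the block was kept as an alternative. Deviations of same-numbered libraries did correlate, with r = 0.56 over the 48 copies and 0.54 over all 1647 tested copies. Whether the numbers mark pairs was not tested. The cluster sum was 0.10 with the block and 0.11 with DESeq2, limma-voom, or DESeq2 size factors. It turned to -0.016 with both tables' totals as library size, to -0.077 with no filter and to -0.019 without overlapping copies, and ranged from -0.15 to 0.26 when single libraries were left out. The first block ranged from -0.29 to -0.056 and the second from 0.0040 to 0.61 in that way. For 38C against 20A the value was 0.089 without overlapping copies and -0.34 to 0.13 with single libraries left out, and in that way against flamenco -0.16 to 0.51, against 42AB 0.28 to 0.80 and against 80F 0.025 to 0.52. The cause of these turns was not tested. Flank sums fell below the filter and have no test; with no filter neither passed the edgeR threshold.

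Other values that changed sign were these. With the repeat total as library size, G2_DM at 20151484 was 0.014, Invader4_LTR 0.0075 and the PROTOP family 0.011. With both tables' totals, G2_DM at 20206502 was -0.044, HOBO at 20203678 was -0.013 and the HOBO family -0.055. With no filter, G2_DM at 20206502 was -0.021, S_DM at 20173313 -0.075, PROTOP at 20149214 -0.014 and the HOBO family -0.092. With single libraries left out, copies ranged as follows: BS at 20109916 from -0.47 to 0.19, G2_DM at 20151484 from -1.10 to 0.68, G2_DM at 20206502 from -0.28 to 0.33, G2_DM at 20207126 from -0.86 to 2.06, G5_DM from -0.0075 to 1.80, G_DM at 20104936 from -0.16 to 0.85, G_DM at 20150149 from -0.14 to 0.89, HOBO from -0.46 to 0.54, Invader4_LTR from -1.81 to 1.40, PROTOP at 20149214 from -0.060 to 0.31 and S_DM at 20173313 from -0.14 to 0.31. Families ranged from -0.41 to 0.063 for BS, -0.51 to 0.91 for G2_DM, -0.015 to 1.80 for G5_DM, -0.010 to 0.86 for G_DM, -0.24 to 0.23 for HOBO, -1.23 to 0.46 for Invader4_I-int and -0.67 to 0.25 for PROTOP. The median SE of a tested copy was 0.74 on the log2 scale.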
